A study of Mus musculus with 2 samples.

Results

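The genes described here make, take up, store and export cholesterol. They are 35 of the 31053 genes listed for both libraries and were matched by symbol. By role, 17 are enzymes of cholesterol synthesis, 6 control the transcription factors called SREBP or carry sterol to the membranes where these are held, 6 serve uptake and handling, and 6 belong to LXR and efflux. The data are single-cell transcript counts from dendritic cells of mouse spleen, made with the droplet method of 10x Genomics from the 3′ end of transcripts. All mice were naive, 7 to 9 weeks old, and of the genotype Il7r-cre; Rosa26-lsl-tdTomato, so every cell of both groups carried the reporter alleles. In these mice tdTomato marks cells that express Il7r, the interleukin 7 receptor chain of lymphoid progenitors, or descend from cells that did. Splenocytes enriched with antibody to CD11c were sorted into tdTomato-positive cells, called L-cDC, and tdTomato-negative cells, called M-cDC. The comparison asks whether conventional dendritic cells (cDC) with and without that history differ, and each group had 1 library. How many mice each library pooled is not given in the sources used here, and tdTomato reports a history of Il7r-driven Cre and not the present state of a cell.

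A cell that lacks sterol in the membrane of its endoplasmic reticulum releases SREBP2, the product of Srebf2, which raises transcription of the enzymes that build cholesterol from acetyl-CoA. A cell with much sterol makes oxysterols, which activate the nuclear receptors LXRα (Nr1h3) and LXRβ (Nr1h2) and with them the exporters Abca1 and Abcg1. Dendritic cells that mature turn on Ccr7, travel to T cell zones and remodel their membranes, and they are found alongside cDC1, which take up dead cells and cross-present, and cDC2, which present to CD4 T cells.

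Counts are of unique molecular identifiers (UMIs), 1 for each captured transcript. In L-cDC there were 4939 barcodes and 40170515 UMIs, and in M-cDC 6674 and 52973960. After filters on genes, mitochondrial UMIs and doublet-like profiles, 3943 and 5600 cells were kept, of which 4 barcodes occurred in both libraries. Levels are UMIs summed over the cells of a class in a library and given per 1000000 UMIs of those cells (CPM), with 95% intervals from the exact Poisson distribution. With 1 library per group there is no test and no p-value here. All intervals cover counting error only. A gene was considered where it had at least 20 CPM in the higher of the 2 groups and at least 50 UMIs over both, and it is called where it also differed by at least 1.5-fold. A difference between cell classes was called only where it passed in the same direction in both libraries.

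Classes were named from marker lists. The cDC1-like class was cluster 5, with 214 L-cDC and 749 M-cDC cells and Xcr1 at 515 and 557 CPM. The cDC2-like class was cluster 4, with 104 and 896 cells and Sirpa at 228 and 238 CPM. The mature-like class was clusters 1, 2, 3 and 6, with 1986 and 2796 cells and Ccr7 at 1347 and 1420 CPM against 12.2 to 30.8 CPM in the other two classes. Within it cluster 1 was the largest in L-cDC (816 cells) and cluster 2 the largest in M-cDC (982 cells). A margin between the best and the second marker list, set after a first naming had been seen, kept clusters 7, 9 and 10 out of the mature-like class. Their shares were 4.79%, 8.88% and 4.41% in L-cDC and 5.86%, 0.0179% and 2% in M-cDC, and cluster 11, left out for low depth, held 4.82% and 1.55%. The same margin kept clusters 14 and 20 out of the cDC1-like class (2.61% and 0.203% in L-cDC, 1.21% and 0.411% in M-cDC), and it left cluster 8 with markers of both cDC2 and plasmacytoid cells (6.32% and 4.57%) and the cycling cluster 15 unnamed (0.457% and 1.29%).

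Stretches of promoter sequence are shown for 5 synthesis genes that were called higher in mature-like cells in both comparisons, to give the reader the region through which SREBP2 and its partners are known to act. They come from RefSeq on GRCm38.p6, read 5′ to 3′ on the strand of the gene, and lie before the annotated gene start. Capitals mark the SRE-like motif TCACNCNAC, the NF-Y box CCAAT and the GC box GGGCGG, each searched on both strands, with overlaps between motifs allowed. The Hmgcs1 stretch is chr13:119690201-119690350 (plus strand), Idi1 is chr13:8885356-8885500 (plus), Cyp51 is chr5:4104747-4104896 (minus), Sc5d is chr9:42264301-42264450 (minus) and Mvd is chr8:122443423-122443572 (minus).
Hmgcs1: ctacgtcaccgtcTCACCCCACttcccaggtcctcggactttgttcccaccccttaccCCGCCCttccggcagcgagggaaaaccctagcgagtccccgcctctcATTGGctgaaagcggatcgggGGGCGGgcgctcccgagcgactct
Idi1: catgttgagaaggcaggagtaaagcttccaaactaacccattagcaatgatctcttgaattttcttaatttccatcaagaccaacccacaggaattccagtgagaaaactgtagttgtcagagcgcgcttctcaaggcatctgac
Cyp51: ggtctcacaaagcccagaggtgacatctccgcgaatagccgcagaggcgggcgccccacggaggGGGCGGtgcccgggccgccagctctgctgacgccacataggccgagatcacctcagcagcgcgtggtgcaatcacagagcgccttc
Sc5d: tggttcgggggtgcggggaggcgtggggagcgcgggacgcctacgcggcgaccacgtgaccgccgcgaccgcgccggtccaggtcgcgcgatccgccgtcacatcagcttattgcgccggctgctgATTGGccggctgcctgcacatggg
Mvd: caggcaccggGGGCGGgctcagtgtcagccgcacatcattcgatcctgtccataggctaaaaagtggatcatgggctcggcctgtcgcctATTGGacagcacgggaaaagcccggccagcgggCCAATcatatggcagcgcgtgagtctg

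The Hmgcs1 stretch held 1 SRE-like match, 1 NF-Y box and 2 GC boxes within 150 bases. Mvd held 2 NF-Y boxes and 1 GC box, Sc5d 1 NF-Y box, and Cyp51 1 GC box. Outside the stretches shown, Sc5d had GC boxes beginning at bases -241 and -205 from the RefSeq start. Cyp51 had an NF-Y box at bases -29 to -25, which GENCODE annotates as part of the gene. The 145 bases shown for Idi1 held none of the 3 motifs, since its 2 NF-Y boxes and 1 GC box lie in the bases next to the RefSeq start that GENCODE annotates as part of the gene. Over the 250 bases before the RefSeq start, 12 of the 14 synthesis genes with an entry (85.7%) held both an NF-Y box and a GC box. The same was found for 13.8% of 27025 genes, and for 27.4% of the 4122 genes with an entry that were considered in the comparison of mature-like with cDC1-like cells. The 12 included Ebp, Lss and Dhcr7, not called higher in mature-like cells in either comparison, but not Pmvk, called higher in both. Both boxes were also present in 4 of 5 SREBP control genes and 3 of 4 uptake and handling genes, but in 1 of 5 LXR and efflux genes, Pltp. In all these counts and shares, a gene with several RefSeq starts was taken over all of them together. Insig2, among the SREBP control genes counted, held its NF-Y boxes and its GC boxes before different starts, so no single window of it held both. The strict SRE-like motif was found in 2 synthesis genes, Hmgcs1 and Nsdhl, against 2.65% of all genes. A strict form of the repeat that LXR binds with its partner, GGTCA repeated with 5 bases between, was found in 0 of the 28 members with an entry and in 0.0703% of all genes. A match describes the letters of this window and does not show a bound site.

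The synthesis genes stood higher in mature-like cells than in either of the other classes, in both libraries. Summed over the 17 enzymes, mature-like cells of L-cDC had 1260 CPM (1243 to 1277) and those of M-cDC 1389 CPM (1374 to 1406). In cDC1-like cells it was 364 CPM (344 to 384) and 424 CPM (412 to 437), and in cDC2-like cells 307 CPM (270 to 346) and 288 CPM (275 to 301). Mature-like cells were therefore 3.47-fold (3.28 to 3.67) and 3.27-fold (3.17 to 3.38) above cDC1-like cells, and 4.11-fold (3.64 to 4.66) and 4.83-fold (4.61 to 5.07) above cDC2-like cells. The intervals of mature-like cells and of the other classes did not overlap.

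Of the 35 genes, 19 were considered between mature-like and cDC1-like cells and 15 were called, where 58.0% of the 5184 considered genes were called. By direction 13 were higher in mature-like cells and 2 lower, against 25.3% and 32.8% of all considered genes. With mitochondrial, ribosomal protein and immunoglobulin genes left out of the total (the reduced total), 13 were higher and 4 lower, and the higher part of all calls went from 43.5% to 31.3%. Among the 11 considered synthesis genes 10 were higher and 0 lower, with a median log2 ratio of 2.13 where the median of all considered genes was -0.13. Between mature-like and cDC2-like cells 22 genes were considered and 18 called, with 53.2% of 5291 genes called. By direction 14 were higher and 4 lower, against 18.6% and 34.5%. There too 10 of 11 considered synthesis genes were higher and 0 lower, with a median of 1.96 against -0.32 for all considered genes. These comparisons share the mature-like cells. In both, Sqle, Fdft1, Sc5d and Mvd reached 20 CPM only in mature-like cells, so they were considered only because they were high there. Ranked without the filter on low values, 15 of the 17 synthesis genes were higher in mature-like than in cDC1-like cells in both libraries. For 13 of them both intervals lay above 1. Against cDC2-like cells 14 were higher, 11 of them with both intervals above 1. Of 30 other genes of lipid metabolism, 6 were higher than in cDC1-like cells and 7 than in cDC2-like cells. No such share was counted over all genes.

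**Figure D1:**
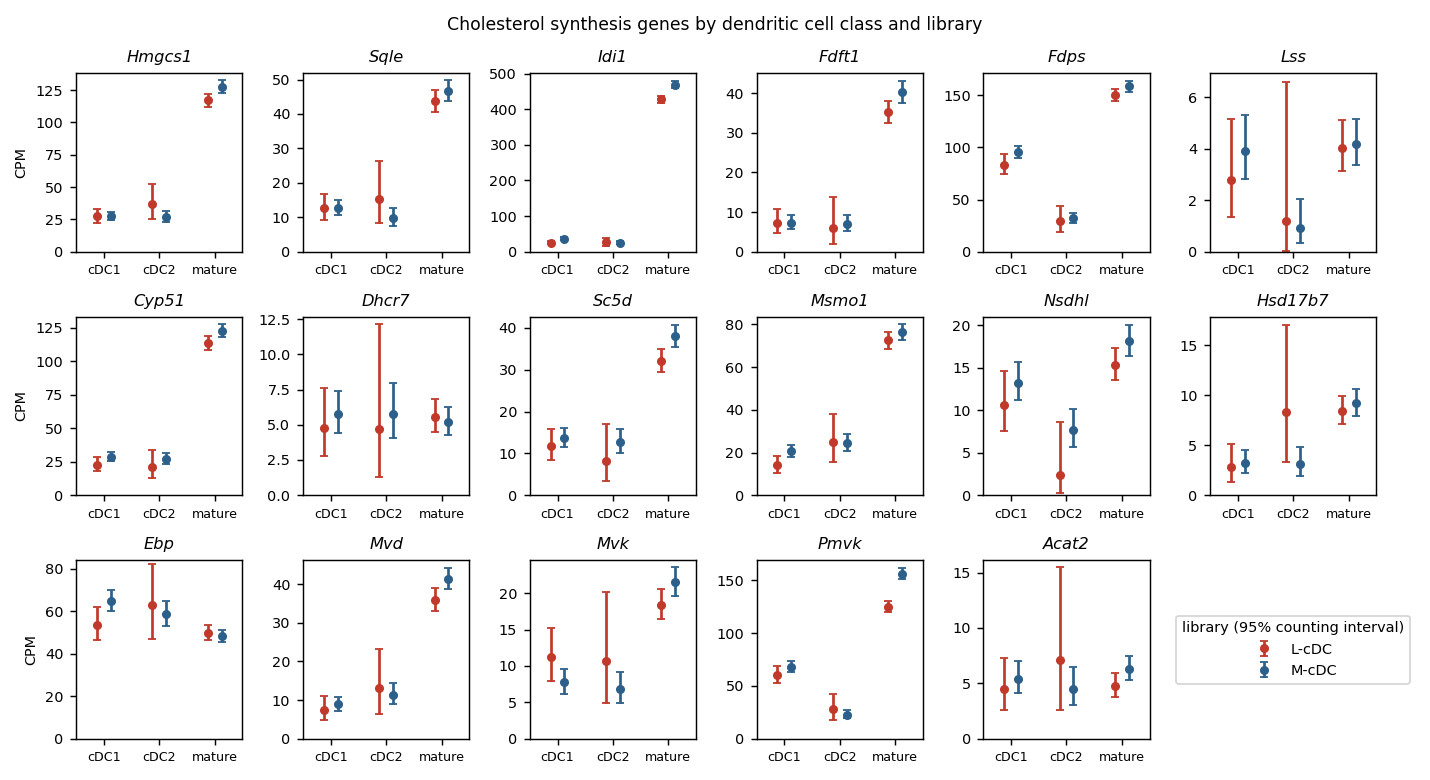
Level (CPM, linear axis from 0, a separate scale for each gene) of the 17 synthesis genes in cDC1-like, cDC2-like and mature-like cells of the L-cDC (red) and M-cDC (blue) library, as points with exact Poisson 95% intervals of counting error. Both mature-like points lie above all others for 10 genes called in each comparison, Idi1 the furthest at 428 and 469 CPM, while Ebp and Dhcr7 show no such step.

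The genes described here for the first steps, from acetyl units towards mevalonate and its activated form, were uneven in level. Acat2, the thiolase that joins acetyl units, was low everywhere, between 4.47 and 7.1 CPM. Hmgcs1, which makes HMG-CoA, was at 27.4 CPM in L-cDC (22.2 to 33.4) and 27.6 in M-cDC (24.6 to 30.9) cDC1-like cells, at 36.7 (24.9 to 52.1) and 26.9 (23.1 to 31.3) in cDC2-like cells, and at 117 (112 to 122) and 128 (123 to 133) in mature-like cells. That is 4.27-fold (3.48 to 5.28) and 4.62-fold (4.1 to 5.23) above cDC1-like cells. Mvk, mevalonate kinase, was at 11.2 and 7.74 CPM in cDC1-like and 18.4 and 21.5 CPM in mature-like cells. Its L-cDC value stayed under 20 CPM, so it was not considered over both libraries, with ratios of 1.64 and 2.78. Pmvk, which adds the second phosphate, was at 60.7 and 68.5 CPM in cDC1-like, 28.4 and 22.9 in cDC2-like and 125 and 156 in mature-like cells. Mvd, which makes isopentenyl diphosphate, was at 7.55 and 8.86 CPM in cDC1-like, 13 and 11.4 in cDC2-like and 35.9 and 41.3 in mature-like cells.

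Idi1, the isomerase that interconverts the small building blocks of isoprenoids, differed more between these classes than any other synthesis gene considered. It lies at chr13:8885501-8892451 on GRCm38. The L-cDC and M-cDC levels were 25.4 CPM (20.5 to 31.2) and 36.6 CPM (33.0 to 40.4) in cDC1-like cells, 26.0 (16.3 to 39.4) and 25.7 (21.9 to 29.9) in cDC2-like cells, and 428 (418 to 438) and 469 (460 to 478) in mature-like cells. That is 16.8-fold (13.7 to 20.9) and 12.8-fold (11.6 to 14.2) above cDC1-like cells, and 16.4-fold (10.8 to 26.2) and 18.2-fold (15.6 to 21.4) above cDC2-like cells. The mature-like levels of both libraries lay far above the 4 other values, whose order changed between libraries.

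Fdps joins these units to farnesyl diphosphate, which also feeds protein prenylation, and it differed between all 3 classes. It was at 83.6 CPM in L-cDC and 95.6 in M-cDC cDC1-like cells, 29.6 and 32.2 in cDC2-like cells, and 150 and 158 in mature-like cells. Mature-like cells were only 1.8-fold (1.59 to 2.03) and 1.66-fold (1.55 to 1.78) above cDC1-like cells, but 5.07-fold (3.43 to 7.86) and 4.92-fold (4.27 to 5.68) above cDC2-like cells. In cluster 3 of the mature-like class Fdps was at 88.4 and 86.4 CPM, near the cDC1-like levels. In clusters 1, 2 and 6 it was at 146 to 189 CPM. The step over cDC1-like cells in M-cDC fell below 1.5-fold with the reduced total (log2 ratio 0.52) and with cells thinned to 3000 UMIs each (0.55), and that in L-cDC with clusters classed by their highest marker list alone (0.555). Fdft1, squalene synthase, makes the first step that leads to sterol alone. Its level went from 7.27 and 7.37 CPM in cDC1-like and 5.92 and 7.01 in cDC2-like cells to 35.2 and 40.2 in mature-like cells. Sqle, squalene epoxidase, went from 12.6 and 12.7 CPM in cDC1-like and 15.4 and 9.81 in cDC2-like cells to 43.8 and 46.7 in mature-like cells.

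The enzymes after the ring is closed split into those that were higher in mature-like cells and those that were not. Lss, lanosterol synthase, which closes the ring, was scarce, at 0.934 to 4.19 CPM over the 6 values, with overlapping intervals between cDC1-like and mature-like cells. Cyp51, which takes off the first methyl group of lanosterol, was at 22.9 and 28.7 CPM in cDC1-like, 21.3 and 27.1 in cDC2-like and 114 and 123 in mature-like cells, 4.96-fold (3.98 to 6.27) and 4.27-fold (3.8 to 4.82) above cDC1-like cells. Msmo1, the oxidase of the next methyl groups, was at 14 and 20.6, 24.9 and 24.5, and 72.5 and 76.3 CPM in the same order. Sc5d, the desaturase near the end of the pathway, was at 11.7 and 13.7, 8.29 and 12.8, and 32.2 and 38.1 CPM. By contrast Ebp, the sterol isomerase between them, was at 53.7 and 64.8 CPM in cDC1-like, 62.7 and 58.6 in cDC2-like and 49.8 and 48.3 in mature-like cells, the one considered synthesis gene not called in either comparison. Dhcr7, the last reductase, ranged from 4.74 to 5.78 CPM and its intervals overlapped throughout. Nsdhl and Hsd17b7 ended below 20 CPM in every class and were not considered, with mature-like levels of 15.3 and 18.1 CPM for Nsdhl and 8.42 and 9.23 for Hsd17b7.

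**Figure D2:**
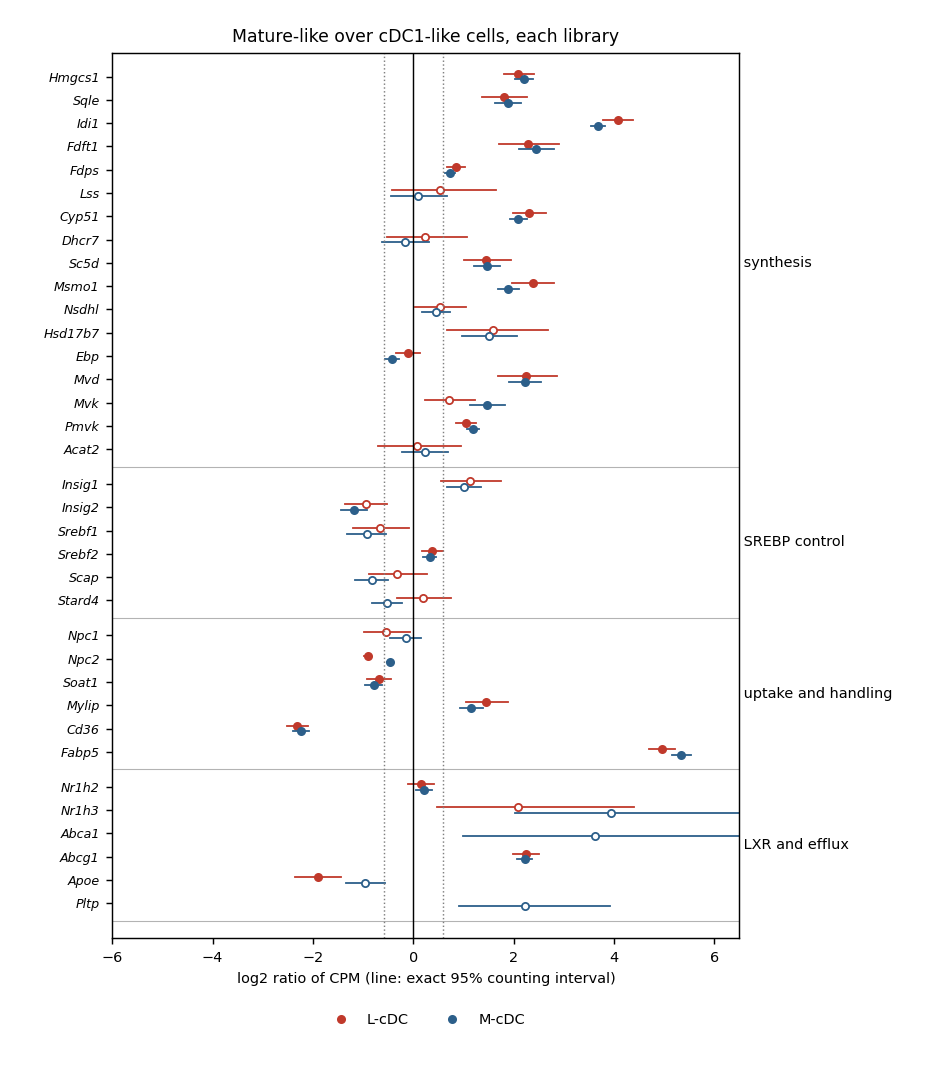
log2 ratio of CPM of mature-like over cDC1-like cells for the 35 genes by role, in L-cDC (red) and M-cDC (blue), with exact 95% counting intervals as lines. Ratios with very few UMIs, or with no UMI in a group, have no point, as for Abca1 and Pltp in L-cDC. Filled points were considered, open points were below the level filter, and dotted lines mark 1.5-fold. The synthesis genes lie mostly to the right, up to Idi1 at 4.07 and 3.68, while uptake and handling genes lie on both sides, from Cd36 at -2.31 and -2.24 to Fabp5 at 4.95 and 5.34.

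Per cell, the difference in synthesis transcripts was also seen at equal depth. With each cell thinned to 3000 UMIs, the median cell held 3 UMIs of the 17 synthesis genes in mature-like cells of both libraries and 1 in cDC1-like cells of both. In cDC2-like cells it was 0 in L-cDC and 1 in M-cDC. The means were 3.68 and 3.91 UMIs in mature-like, 1.02 and 1.26 in cDC1-like and 0.929 and 0.882 in cDC2-like cells, after 82 and 77, 0 and 9, and 5 and 21 cells with fewer UMIs had been left out. Unthinned medians were 7 and 7, 5 and 4, and 2 and 1 UMIs, at median depths of 8247 and 7136 UMIs per mature-like cell and 16299 and 14342 per cDC1-like cell. The 12 markers of cycling cells ran the other way, at 53.1 and 52.5 CPM in sum in mature-like and 323 and 343 in cDC1-like cells, with none of them at 0. Their part in the result was not tested.

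Of the 6 SREBP control genes, only Srebf2 was considered in both libraries between mature-like cells and either other class, and it was not called. Srebf2 itself was at 63.2 CPM (55.2 to 72.0) and 69.5 (64.6 to 74.7) in cDC1-like, 80.5 (62.5 to 102) and 94.1 (86.7 to 102) in cDC2-like and 81.9 (77.7 to 86.3) and 87.0 (83.1 to 91.1) in mature-like cells. The mature-like level was 1.3-fold (1.13 to 1.5) and 1.25-fold (1.15 to 1.37) above cDC1-like cells and within the counting interval of cDC2-like cells. Insig1 and Insig2 encode the proteins that hold SREBP back when sterol is plentiful, and neither was called over both libraries at the main settings. With the reduced total or a minimum of 10 CPM, Insig1 was called higher and Insig2 lower in mature-like than in cDC1-like cells. Insig2 was also called lower with at least 1000 genes, with at most 5% mitochondrial UMIs and at a clustering resolution of 2.0. Insig1, itself a target of SREBP, was at 7.55 and 9.05 CPM in cDC1-like and 16.5 and 18.1 in mature-like cells, a ratio of 2.19 (1.47 to 3.37) and 2.0 (1.6 to 2.53), but stayed under 20 CPM. Insig2 was at 19.6 and 24.8 CPM in cDC1-like and 10.1 and 10.9 in mature-like cells, 1.93-fold (1.44 to 2.57) and 2.28-fold (1.9 to 2.73) lower, and was below 20 CPM throughout in L-cDC. These ratios, in opposite directions, are as large as those of the enzymes Fdps and Pmvk. Scap, the escort of SREBP, Srebf1, which favours fatty acid synthesis, and Stard4, a sterol carrier, stayed between 5.28 and 15.5 CPM in every class. Summed over the 6 genes, in which opposite differences cancel, mature-like cells differed from cDC1-like cells by 1.12-fold (1.01 to 1.24) in L-cDC and 0.98-fold (0.921 to 1.04) in M-cDC. With the reduced total both lay below 1, at 0.941 and 0.845.

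Uptake and handling genes did not move as a set. Fabp5, a fatty acid carrier of the cytosol at chr3:10012548-10016607, had the widest difference of all 35 genes considered between mature-like and cDC1-like cells. The L-cDC and M-cDC levels were 35.5 CPM (29.6 to 42.3) and 22.8 (19.99 to 25.8) in cDC1-like cells, 285 (250 to 324) and 245 (233 to 258) in cDC2-like cells, and 1098 CPM and 924 CPM in mature-like cells. Mature-like cells were 30.9-fold (26.0 to 37.1) and 40.6-fold (35.8 to 46.3) above cDC1-like cells and 3.85-fold (3.39 to 4.39) and 3.77-fold (3.58 to 3.97) above cDC2-like cells. Summed by class, the 3 classes kept one order in both libraries with no overlap. Not every mature-like cluster followed it. Cluster 2 was below cDC2-like cells, at 174 and 187 CPM, and cluster 6 was at 367 and 261. Clusters 1 and 3 were at 1269 to 1970 CPM. Mylip, a ubiquitin ligase that lowers lipoprotein uptake and is a known LXR target, was at 15.1 and 18.4 CPM in cDC1-like, 21.3 and 15.7 in cDC2-like and 41.4 and 40.8 in mature-like cells.

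Summed by class, other handling genes were highest outside mature-like cells. Cd36, a scavenger receptor for lipids and dead cells, was at 100 CPM (90.3 to 111) and 97.7 (91.8 to 104) in cDC1-like cells and 20.2 (18.2 to 22.5) and 20.7 (18.8 to 22.7) in mature-like cells, 4.96-fold (4.27 to 5.77) and 4.72-fold (4.22 to 5.29) lower. In cDC2-like cells it was at 14.2 CPM in L-cDC and 3.27 in M-cDC, and 1 cell gave 66.7% of the 12 UMIs in L-cDC. Soat1 makes cholesteryl esters for storage. It was at 58.7 and 56.1 CPM in cDC1-like, 78.1 and 74.9 in cDC2-like and 36.5 and 32.4 in mature-like cells, lowest in mature-like cells in both libraries. The L-cDC ratio to cDC1-like cells was under 1.5-fold with cells thinned (log2 ratio -0.555) and with the highest marker list alone (-0.546), and that to cDC2-like cells with cells classed by marker means (-0.503). Npc1 and Npc2 pass cholesterol out of the lysosome one after the other, and their levels did not follow each other. Npc1 was highest in cDC2-like cells, at 55.6 CPM (40.9 to 74.0) and 39.9 (35.1 to 45.1), against 14.8 and 13.3 in cDC1-like and 10.2 and 12 in mature-like cells. By class, Npc2 was highest in cDC1-like cells, at 785 CPM (756 to 815) and 745 (729 to 762), then 418 and 537 in mature-like and 237 and 257 in cDC2-like cells. Within the mature-like class, Npc2 in cluster 6 was above the cDC1-like level, at 1163 and 1124 CPM. It was at 764 and 799 in cluster 2, and at 139 to 161 in clusters 1 and 3. Its L-cDC call over cDC2-like cells was lost at a clustering resolution of 0.5 (log2 ratio 0.21) and with marker means (0.509), and that of Mylip with marker means (0.22).

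Among LXR and efflux genes, only Abcg1 was called higher in mature-like cells. Abcg1, which exports cholesterol to HDL, was at 34.7 CPM (28.8 to 41.3) and 38.5 (34.9 to 42.4) in cDC1-like, 47.4 (33.8 to 64.5) and 42.7 (37.8 to 48.0) in cDC2-like and 164 (158 to 170) and 180 (174 to 186) in mature-like cells. It was 4.73-fold (3.95 to 5.71) and 4.67-fold (4.22 to 5.18) above cDC1-like cells. Nr1h2 was even, between 35.2 and 50.8 CPM. Nr1h3 had at most 5.92 CPM in any class, and Abca1, the exporter to lipid-poor apolipoprotein, at most 2.34. Abca1 had 0 UMIs in L-cDC cDC1-like cells. Pltp, a transfer protein of lipoproteins, was at 21.3 CPM (12.6 to 33.7) and 31.1 (27.0 to 35.8) in cDC2-like cells, against 1.99 and 2.19 in mature-like cells, 10.7-fold (5.7 to 19.5) and 14.2-fold (10.3 to 20.1) lower. With at most 5% mitochondrial UMIs it fell under the level filter in both libraries, with log2 ratios of -2.14 and -3.17. In cDC1-like cells Pltp had 0 UMIs in L-cDC and 5 in M-cDC.

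Apoe, the apolipoprotein that accepts exported cholesterol, was lowest in mature-like cells, at 5.62 CPM (4.55 to 6.86) and 5.42 (4.47 to 6.51). It was at 21.0 (16.5 to 26.3) and 10.5 (8.69 to 12.7) in cDC1-like and 56.8 (41.9 to 75.3) and 25.5 (21.8 to 29.8) in cDC2-like cells. A small cluster with macrophage markers, cluster 19 with 17 cells in each library, held Apoe at 19116 and 28469 CPM, Nr1h3 at 256 and 193, Abca1 at 146 and 193 and Pltp at 219 and 204. Apoe was also at 464 CPM in cluster 13, NK and T cells, and at 572 in cluster 16, B cells, both of the L-cDC library. Cluster 13 held only 9 M-cDC cells. Their LXR and efflux genes summed to 5254 CPM on 172 UMIs, against 594 CPM in the L-cDC cells of that cluster. The 11 macrophage markers summed to 7.55 and 12.3 CPM in cDC1-like cells, with 7 and 10 of them detected, to 91.1 and 106 CPM in cDC2-like cells, with 6 and 9 detected, and to 46.9 and 55.6 in mature-like cells, with 9 and 9 detected. C1qa and C1qb were at 0 in L-cDC cDC2-like cells and at 8.25 and 9.19 CPM in M-cDC. Free RNA from such cells as a source of Apoe UMIs was not tested.

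Between cDC1-like and cDC2-like cells, 2 of the 7 considered synthesis genes were called and the other 10 were not considered. Their summed level was 1.19-fold (1.04 to 1.36) higher in cDC1-like cells in L-cDC and 1.48-fold (1.4 to 1.56) in M-cDC. Of 16 genes considered between them 7 were called, where 25.6% of 5065 considered genes were, with 4 higher in cDC1-like cells and 3 lower against 8.71% and 16.9%. The 4 were Fdps and Pmvk of the synthesis genes, Npc2 and Cd36, and the 3 were Npc1, Fabp5 and Apoe. Fdps was 2.83-fold (1.88 to 4.44) and 2.97-fold (2.55 to 3.46) and Pmvk 2.14-fold (1.4 to 3.41) and 2.99-fold (2.5 to 3.59) higher in cDC1-like cells. The other 5 considered synthesis genes were not called, and their median with Fdps and Pmvk was 0.10 on the log2 scale against -0.12 for all considered genes. Npc2 was 3.32-fold (2.87 to 3.85) and 2.91-fold (2.76 to 3.07) higher, and Fabp5 8.03-fold (6.45 to 10.0) and 10.8-fold (9.42 to 12.4) lower in cDC1-like cells. With clusters classed by their highest marker list alone, the L-cDC log2 ratio of Fabp5 turned from -3.01 to 0.11. The Apoe difference in L-cDC was -1.44 on that scale and -0.056 with at most 5% mitochondrial UMIs.

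The 4 mature-like clusters were not alike in these genes. Cluster 3 had the lowest summed synthesis level and the lowest Idi1 of the 4 in both libraries, while the order of some other genes turned between the libraries. The summed synthesis level was 1264 CPM in L-cDC and 1439 in M-cDC in cluster 1, 1604 and 1646 in cluster 2, 634 and 681 in cluster 3 and 1537 and 1466 in cluster 6. Cluster 3 therefore lay nearer to cDC1-like cells than the others did. Idi1 was at 416 and 452 CPM in cluster 1, 586 and 585 in cluster 2, 110 and 112 in cluster 3, and 703 and 663 in cluster 6. Hmgcs1 did not keep that order, nor the same order in both libraries, at 131 and 166, 146 and 147, 63.5 and 69.5, and 71.5 and 54.8 CPM in the same clusters. Cluster 6 thus joined the highest Idi1 of the 4 with a low Hmgcs1, and its Srebf2 was lowest, at 36.1 and 31.8 CPM against 75.9 to 100.1 in the other three.

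**Figure D3:**
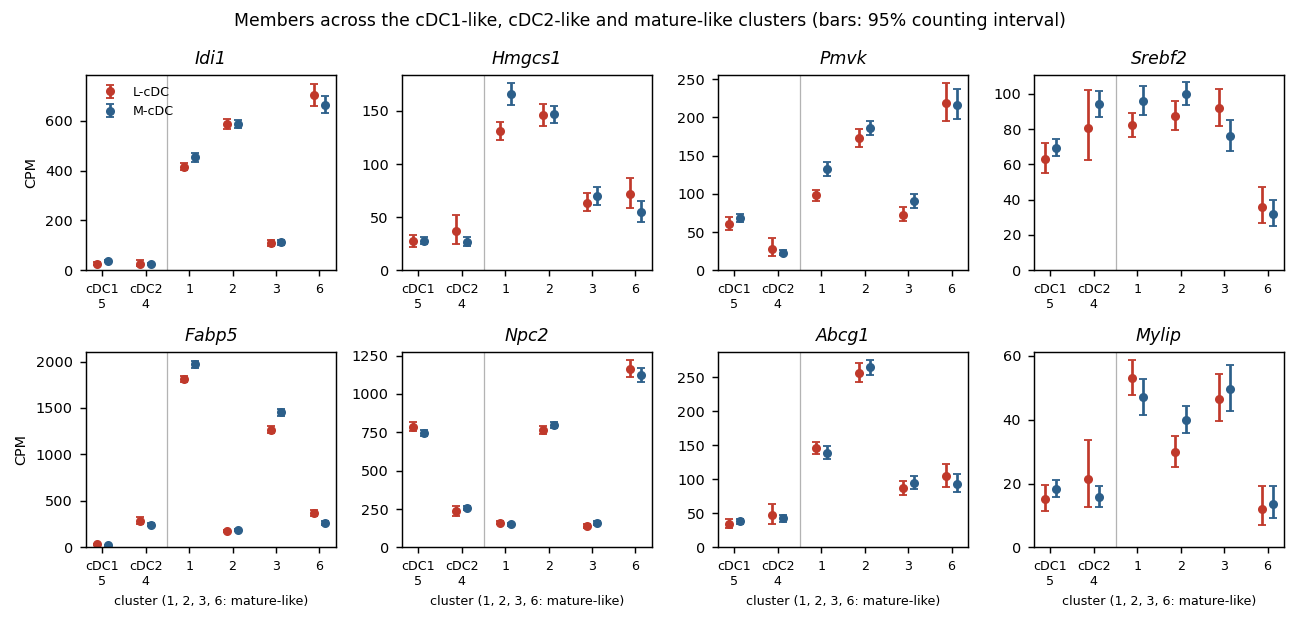
Level (CPM, linear axis from 0, a separate scale for each gene) of 8 genes in the cDC1-like cluster 5, the cDC2-like cluster 4 and the mature-like clusters 1, 2, 3 and 6, in L-cDC (red) and M-cDC (blue), with exact Poisson 95% intervals. Fabp5 and Npc2 alternate across the mature-like clusters, with Fabp5 at 1813 and 1970 CPM in cluster 1 and Npc2 at 1163 and 1124 CPM in cluster 6.

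Fabp5 and Npc2 divided the mature-like clusters in opposite ways. Fabp5 was at 1813 and 1970 CPM in cluster 1 and 1269 and 1455 in cluster 3, but at 174 and 187 in cluster 2 and 367 and 261 in cluster 6. Npc2 was at 160 and 151 CPM in cluster 1 and 139 and 161 in cluster 3, but at 764 and 799 in cluster 2 and 1163 and 1124 in cluster 6. Abcg1 was highest in cluster 2, at 257 and 265 CPM, then 147 and 139 in cluster 1, 105 and 94.0 in cluster 6 and 87.2 and 95.1 in cluster 3. Cluster 9, unnamed and almost wholly of the L-cDC library with 350 cells against 1, held both at once, with Fabp5 at 2203 CPM and Npc2 at 1282, and its synthesis genes summed to 1038 CPM. Fabp5 was highest in cluster 7, also unnamed with mature markers leading, at 3184 CPM in L-cDC and 2953 in M-cDC, where Idi1 was at 136 and 89.3 CPM. With 1 library per group, a cluster of one library cannot be told apart from that library.

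**Figure D4:**
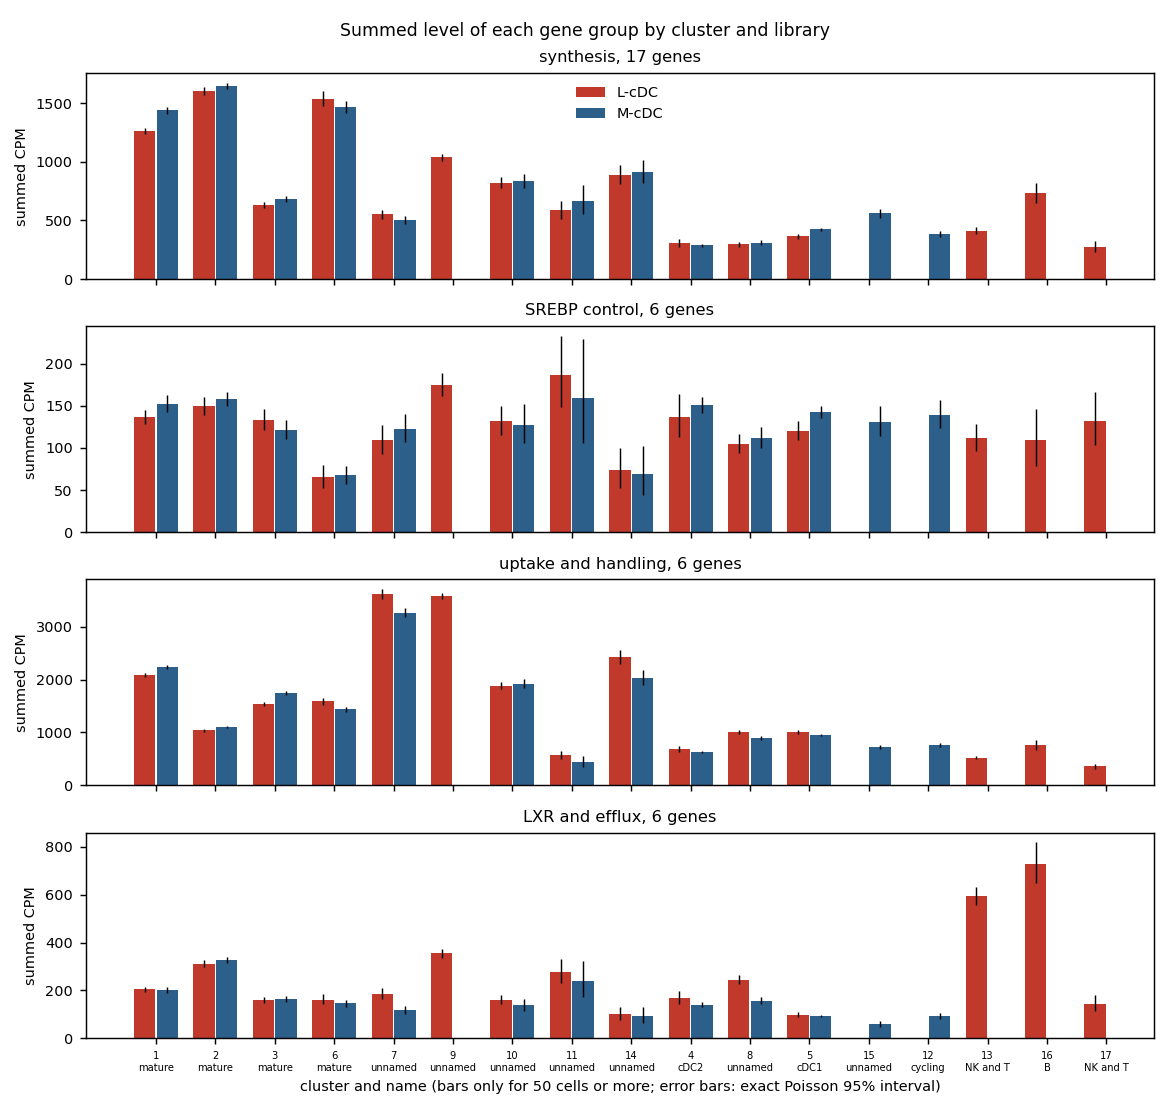
Summed level (CPM, bars from 0) of the synthesis, SREBP control, uptake and handling, and LXR and efflux genes in each cluster with 50 or more cells of a library, L-cDC (red) and M-cDC (blue), with exact Poisson 95% intervals as error bars. Synthesis bars are tallest in clusters 2, 6 and 1, from 1264 to 1646 CPM, and the LXR and efflux bars are tallest in clusters 16 and 13 of L-cDC, where Apoe was at 572 and 464 CPM.

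Between the libraries, within a class, the genes called were Fabp5 in cDC1-like cells and Apoe in both cDC1-like and cDC2-like cells. In mature-like cells 0 of 20 considered genes were called, where 0.579% of 4319 considered genes were, 0.394% higher and 0.185% lower in L-cDC. Below that size, 15 of the 17 synthesis genes were lower in L-cDC, and for 11 the interval of the ratio lay below 1. Of 30 other genes of lipid metabolism 13 were lower, with 1 interval below 1. Such shares were not counted over all genes. The median over the 12 considered synthesis genes was -0.13 on the log2 scale, against -0.04 over all considered genes. The sum of the synthesis genes was 1.10-fold (1.08 to 1.12) lower in L-cDC. Pmvk was lower by the most among the considered synthesis genes, 1.25-fold (1.18 to 1.32). By cluster, the sum was 1264 (1238 to 1290) against 1439 (1408 to 1470) CPM in cluster 1 and 634 (608 to 661) against 681 (656 to 708) in cluster 3. It was 1604 (1569 to 1639) against 1646 (1620 to 1673) in cluster 2 and 1537 (1473 to 1603) against 1466 (1417 to 1516) in cluster 6. Only the intervals of cluster 1 did not overlap.

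Ratios over the mature-like class could differ from those of its clusters, and 4 genes chosen after their values were seen show it. Npc2 was 1.29-fold (1.25 to 1.32) lower in L-cDC over the class, while within clusters 1, 2, 3 and 6 the L-cDC to M-cDC ratio was 1.06, 0.956, 0.861 and 1.03. Fabp5 was 1.19-fold (1.16 to 1.21) higher in L-cDC over the class, while it was 0.92, 0.929 and 0.872 in clusters 1, 2 and 3 and 1.41 in cluster 6. Cluster 1, rich in Fabp5, had 816 of the 1986 mature-like L-cDC cells, and 798 of the 2796 mature-like M-cDC cells. Cluster 2, rich in Npc2, had 471 and 982. Cd36 was even over the class, at 20.2 and 20.7 CPM, but in cluster 6 it was at 24.1 CPM in L-cDC and 12.2 in M-cDC, 1.98-fold (1.16 to 3.38) higher on 34 and 28 UMIs. Hmgcs1, lower in L-cDC over the class, was 1.3-fold (0.994 to 1.71) higher there, with an interval that holds 1.

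In cDC1-like cells 2 of 16 considered genes were called between the libraries, both higher in L-cDC, where 0.966% of 4762 genes were called, 0.378% higher and 0.588% lower. With the reduced total, the higher part of all calls went from 39.1% to 56.8%. Fabp5 was 1.56-fold (1.25 to 1.94) higher, at 35.5 against 22.8 CPM. It was lower in L-cDC, with a log2 ratio of -0.415, when doublet-like cells were kept, and Idi1, lower, was then the 1 gene called. Apoe was 1.99-fold (1.47 to 2.69) higher, at 21.0 against 10.5 CPM, and 1 cell gave 18.7% of its L-cDC UMIs. It fell under the level filter without the highest cell of each library, with doublet-like cells kept and with cells thinned, at log2 ratios of 0.86, 0.80 and 1.17. Of the 17 synthesis genes 16 were lower in L-cDC, and for 4, Idi1, Fdps, Msmo1 and Ebp, the interval lay below 1. Of 30 other genes of lipid metabolism 22 were lower, with 5 intervals below 1, and no share over all genes was counted. The sum of the synthesis genes was 1.17-fold (1.10 to 1.24) lower, and Idi1 was 1.44-fold (1.14 to 1.83) lower. The median over the 7 considered synthesis genes was -0.27 against -0.08 for all considered genes. These genes share cells and library, so their number is no measure of replication.

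In cDC2-like cells 1 of 17 considered genes was called between the libraries, where 7.48% of 5386 considered genes were called, 3.51% higher and 3.97% lower. Apoe was 2.22-fold (1.58 to 3.09) higher in L-cDC, at 56.8 against 25.5 CPM, and 1 of the 104 L-cDC cells gave 31.3% of its 48 UMIs. The log2 ratio was 1.15, and it was 0.91 without the highest cell. It was under 1.5-fold with at most 5% mitochondrial UMIs (0.27), with the 35 genes among the variable genes (0.51) and with cells classed by marker means (0.19). The count itself was 5 at a clustering resolution of 0.5 and 6 each with a minimum of 10 CPM and with cells thinned, with Apoe among them each time. The synthesis genes divided, 11 higher and 6 lower in L-cDC with no interval clear of 1, and their sum had a ratio of 1.07 (0.932 to 1.21). Only 259 synthesis UMIs were counted in the L-cDC cells of this class, so a difference within that interval was not detectable at this depth.

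**Figure D5:**
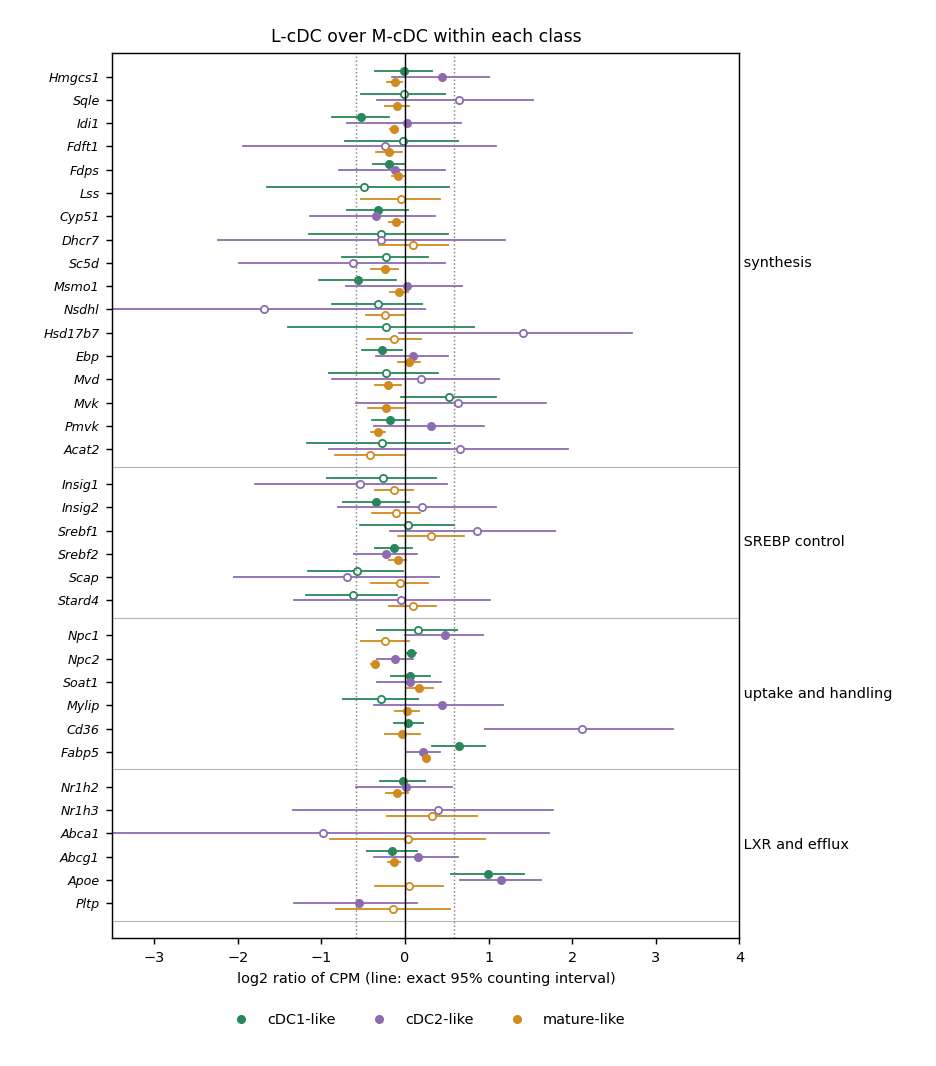
log2 ratio of CPM of L-cDC over M-cDC for the 35 genes by role within cDC1-like (green), cDC2-like (purple) and mature-like (orange) cells, with exact 95% counting intervals as lines. Ratios with very few UMIs, or with no UMI in a group, have no point. Filled points were considered, open points were below the level filter, and dotted lines mark 1.5-fold. Most orange synthesis points lie slightly left of 0, with a median of -0.13, and the filled points beyond the right dotted line are Fabp5 in cDC1-like cells and Apoe in both cDC1-like and cDC2-like cells.

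In the comparisons of mature-like cells, other genes of lipid metabolism were called about as often as all considered genes. Of 30 further pathway genes 13 were considered between mature-like and cDC1-like cells, with 2 higher and 6 lower (25.3% and 32.8% of all considered genes). Between mature-like and cDC2-like cells 11 were considered, with 2 higher and 4 lower (18.6% and 34.5%). Mbtps1, the protease that makes the first cut of SREBP, was at 43.2 and 47.5 CPM in mature-like cells against 21.3 and 21.3 in cDC1-like cells. Gramd1b, which carries sterol from the plasma membrane inward, was 5.33-fold (3.29 to 9.23) and 5.64-fold (4.24 to 7.64) above cDC1-like cells. The genes with the largest differences downward from cDC1-like cells were Scarb1, the HDL receptor (10.0-fold and 15.4-fold lower), Fasn, fatty acid synthase (3.84-fold and 5.66-fold), and Lipa, the lysosomal lipase that frees cholesterol from esters (3.6-fold and 3.41-fold). Lipa was also lower than in cDC2-like cells, 3.28-fold (2.43 to 4.34) and 4.42-fold (3.91 to 5.0), as were Ggps1, Scd2 and Rxrb. Between cDC1-like and cDC2-like cells 2 of 13 were called, Scarb1 and Cyp27a1, both higher in cDC1-like cells, where 8.71% of all considered genes were higher. Between the libraries, where 0.966%, 7.48% and 0.579% of considered genes were called in cDC1-like, cDC2-like and mature-like cells, 1 of 13, 1 of 13 and 0 of 7 pathway genes were. Ggps1 was 1.5-fold (1.1 to 2.09) lower in L-cDC cDC1-like cells and Nceh1, an ester hydrolase, 1.82-fold (1.16 to 2.77) higher in L-cDC cDC2-like cells.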

How the data were processed

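Per gene and barcode, the authors deposited unnormalised UMI counts, made with Cell Ranger 6.1.2 per the file headers, on GRCm38 (mm10) per the submitters' processing notes. Members and gene lists were chosen with earlier results of these data known. Cells with at least 500 genes and at most 10% mitochondrial UMIs were kept. Scrublet (expected rate 0.08) set thresholds of 0.635 and 0.258, and the lower was applied to both libraries, removing 143 and 248 cells. Clustering used scanpy 1.11.5 with 2000 variable genes without the 35 members and 30 pathway genes, 30 components, 15 neighbours and Leiden at resolution 1.0. Naming needed a marker score of 0.3, a margin of 0.5 and 3 markers at 10 CPM; the score thresholds were set after seeing a first naming. Counts were summed per class and library, with exact Poisson and conditional binomial intervals (scipy 1.17.1), and a group at 0 was set to 3 counts. The calculation was tested on simulated data. All 35 members are named, with up to 4 called pathway genes per comparison. Mbtps1 is named beyond that limit for mature-like over cDC1-like cells. Alternatives varied filters, doublets, resolution, variable genes, classing, scaling and depth. Cells were not treated as replicates.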

Additional observations from a re-analysis of the deposited data

How the results depend on the processing

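Between classes, the number of genes called stayed within 1.5 times its value of 15 (mature-like over cDC1-like, 10 to 20) and 7 (cDC1-like over cDC2-like, 5 to 8) in all alternatives that gave a value, and the 18 of mature-like over cDC2-like became 10 at 50 CPM or more and 15 to 20 otherwise. The ratio of summed synthesis levels of mature-like over cDC1-like cells was 2.67 to 4.82 in L-cDC and 2.82 to 4.6 in M-cDC over all settings. Between libraries, the 2 genes of cDC1-like cells became 0 at 50 CPM or more, 1 with doublet-like cells kept (Idi1, not Fabp5 or Apoe), 1 with clusters classed by their highest marker list alone (added after seeing the data), and 2 or 3 otherwise. The 1 gene of cDC2-like cells became 5 at resolution 0.5, 3 at resolution 2.0, 2 with the members among the variable genes, 3 without mitochondrial, ribosomal protein and immunoglobulin genes in the total, 6 at 10 CPM or more, 6 with cells thinned, 2 without the highest cell of each gene, and 3 with cells classed by marker means. Apoe was among the genes called except in 3 settings: with at most 5% mitochondrial UMIs the 1 gene was Fdps, lower in L-cDC, and with the members among the variable genes or marker means Apoe was not among those called. The 0 genes of mature-like cells became 1 with marker means. The log2 ratio of Fabp5 reversed from 0.64 to -0.415 between libraries in cDC1-like cells with doublet-like cells kept, and from -3.01 to 0.11 in cDC1-like over cDC2-like cells of L-cDC with the highest marker list alone; the cause was not tested. That other total moved every mature-like over cDC1-like ratio by -0.25 and -0.21, with 13 genes higher and 4 lower, and the share of all calls that were higher from 43.5% to 31.3%. With at least 1000 genes, or doublet-like cells kept, no cluster was named cDC2-like, so those comparisons gave no value. No paired analysis was possible because each group has 1 library and the labels carry no replicate numbers. Depth limits the 104 L-cDC cells of the cDC2-like class most.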
